A study of Mus musculus with 13 samples.

Results

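MHC class II presentation was followed through 8 genes, taken by name from the count table: H2-Aa, H2-Ab1, H2-Eb1, H2-DMa, H2-DMb1, H2-Oa, Cd74 and Ciita. All 8 were found among the 46958 genes of the table, and all 8 were among the 16738 genes that passed a filter on low counts and were tested. MHC class II molecules are pairs of an alpha and a beta chain that show peptides from engulfed or internalised protein to CD4+ T cells. The invariant chain, encoded by Cd74, escorts newly made pairs to the endosome, where proteases trim it to a fragment that blocks the groove. H2-DM then exchanges that fragment for a peptide, H2-O restrains H2-DM, and the coactivator CIITA switches the whole set of genes on. In the kidney the pathway is best known from dendritic cells, macrophages and B cells, with induction by interferon gamma in other cell types.

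RNA was sequenced from renal glomeruli, the filtering tufts of the kidney, which were captured on magnetic beads. The mice were 6 months old, of the mixed C57/BL6x129/SVxBALB/c background. The genotypes were kFRA (LCDD), with 4 libraries, DH-LMP2A, with 4 libraries, and wild type (WT), with 5 libraries. LCDD stands for light chain deposition disease, in which monoclonal immunoglobulin light chains settle in the kidney, and the series title places the toxicity of such chains on glomeruli at the centre of the study. The labels do not describe DH-LMP2A, nor do they say whether LCDD mice also carry it, which promoter drives a transgene, or how many founder lines were used. Libraries are numbered within each genotype in the order of their accessions. Each pooled 3 mice, except WT 3, WT 4 and WT 5, which came from 1 mouse each. The sample titles carry a code with 4 values that libraries of different genotypes share and whose meaning is not stated. LCDD 1 to LCDD 4 and DH-LMP2A 1 to DH-LMP2A 4 carry the first to the fourth code in turn, WT 1 carries the first, WT 2 the third, and the 3 single-mouse libraries the fourth.

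Total counts ran from 16687509 to 30587890 per library. Podocyte markers were high in each library, with a sum over 6 genes of 6729 to 30445 CPM (read counts relative to library size, scaled here with TMM factors), so the labelled tissue was present throughout. The podocyte sum was lowest in LCDD 1. Tubule RNA was not shared evenly, with a sum over 7 tubule genes of 480 to 1926 CPM in LCDD, 855 to 2991 in DH-LMP2A and 232 to 3248 in WT. Libraries of the first and second codes had the most: 1448 and 1926 in LCDD 1 and 2, 2991 and 1773 in DH-LMP2A 1 and 2, and 3248 in WT 1. The highest under the later codes was 946, in DH-LMP2A 4. Sums over 5 pan-leukocyte genes were 86.7 to 162 CPM in LCDD, 47.4 to 98.9 in DH-LMP2A and 59.4 to 186 in WT. WT 2 stood apart from the other WT libraries, with the highest level of 7 of the 8 class II genes and of the pan-leukocyte sum. It was also the only WT library with a clear signal from 4 Y-linked genes (27.0 CPM in sum, against 0 to 0.0811 in the other WT libraries, 18.0 to 220 in LCDD and 68.3 to 223 in DH-LMP2A). DH-LMP2A 1 stood above the other libraries of its genotype in 7 of the 8. Fold changes of the 8 genes that rest on WT 2 or DH-LMP2A 1 are given with and without them. Correlations are over all 13 libraries unless stated, and were not repeated without DH-LMP2A 1.

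Per unit of exon length, Cd74 was the most abundant of the 8, with a mean of 50.5 RPKM (CPM per kilobase of exon) over the 13 libraries (13.5 to 138). H2-Eb1 (22.9 RPKM), H2-Aa (20.5) and H2-Ab1 (20.1), which encode chains of the peptide-presenting molecules, followed. H2-DMb1 came next with 14.3 RPKM, then H2-DMa with 2.47, Ciita with 0.616 and H2-Oa with 0.271. Cd74 exceeded H2-Eb1 in 13 of 13 libraries, and H2-Eb1 exceeded H2-Aa in 12 of 13. H2-Aa exceeded H2-Ab1 in only 7 of 13 and H2-Ab1 exceeded H2-DMb1 in 8 of 13, so these neighbours in the order did not separate. H2-DMb1 exceeded its partner chain H2-DMa in 12 of 13 libraries. The lower ranks were clear, since H2-DMa exceeded Ciita and Ciita exceeded H2-Oa in 13 of 13. H2-Oa rested on 1 to 30 reads per library and lay at or under the floor of 3 counts in 2 libraries, DH-LMP2A 3 and DH-LMP2A 4.

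H2-Aa encodes the alpha chain of the I-A molecule (chromosome 17, 34282744 to 34287827, minus strand, in GRCm38). Its level was 70.2, 61.3, 22.7 and 36.0 CPM in LCDD 1 to 4. In DH-LMP2A 1 to 4 it was 43.0, 14.2, 16.3 and 11.2 CPM. In WT 1 to 5 it was 47.7, 91.4, 22.4, 29.0 and 35.3 CPM. Of the DH-LMP2A libraries, 3 lay below every library of the other genotypes, and DH-LMP2A 1 lay inside both of their ranges. WT averaged 45.1 ± 27.5 CPM (SD, n = 5), LCDD 47.5 ± 22.0 CPM (SD, n = 4) and DH-LMP2A 21.2 ± 14.7 CPM (SD, n = 4).

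The other chains had the same layout. H2-Ab1, the beta chain of I-A (chromosome 17, 34263209 to 34269418, plus strand), was at 55.2, 47.7, 18.0 and 23.9 CPM in LCDD, at 43.8, 13.4, 16.4 and 10.9 in DH-LMP2A, and at 32.8, 91.1, 20.9, 24.4 and 28.8 in WT. H2-Eb1, the beta chain of I-E (chromosome 17, 34305877 to 34316199, plus strand), was at 46.6, 41.6, 15.9 and 22.8 CPM in LCDD, at 27.1, 10.1, 14.3 and 7.79 in DH-LMP2A, and at 31.9, 75.7, 15.02, 19.1 and 25.1 in WT. Again DH-LMP2A 2, 3 and 4 were the 3 lowest of the 13 libraries for both genes, and WT 2 was the highest.

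Cd74 (chromosome 18, 60803848 to 60812646, plus strand) read 109, 103.9, 35.9 and 53.3 CPM in LCDD 1 to 4. It read 91.3, 30.4, 31.3 and 19.0 CPM in DH-LMP2A 1 to 4, and 100.2, 194.8, 39.9, 45.9 and 70.1 CPM in WT 1 to 5. The 3 lowest libraries were once more DH-LMP2A 2, 3 and 4.

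H2-DMa, the alpha chain of the peptide exchange factor (chromosome 17, 34135182 to 34139101, plus strand), ranged from 2.42 to 5.79 CPM in LCDD, from 1.75 to 5.16 in DH-LMP2A and from 2.76 to 9.64 in WT. Ciita (chromosome 16, 10488178 to 10527564, plus strand) ranged from 1.89 to 4.87 CPM in LCDD, from 1.21 to 3.44 in DH-LMP2A and from 1.88 to 9.45 in WT. Both ranges of DH-LMP2A overlapped those of the other genotypes through DH-LMP2A 1, and for H2-DMa DH-LMP2A 3 also lay close to the lowest LCDD library. Ciita overlaps the gene Dexi on the opposite strand and H2-Oa overlaps BC051537 on the opposite strand. The strand setting of the counting is not given in the sources used here, so reads from such pairs cannot be told apart.

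H2-Oa encodes the alpha chain of H2-O (chromosome 17, 34092340 to 34095234, plus strand). It had 9, 16, 5 and 10 reads in LCDD (0.345, 0.602, 0.269 and 0.394 CPM). In DH-LMP2A it had 5, 5, 2 and 1 reads (0.187, 0.185, 0.114 and 0.0448 CPM). In WT it had 30, 9, 9, 6 and 8 reads (0.971, 0.556, 0.360, 0.268 and 0.324 CPM). All 4 DH-LMP2A libraries lay below all 9 of the others. The filter asked for 0.396 CPM by library total in at least 4 libraries. H2-Oa reached it in 2 LCDD and 2 WT libraries and in 0 DH-LMP2A libraries, so it was tested only because of the genotypes in which it is higher, and its separation is no support for a difference. The other 7 genes reached that level in all 13 libraries.

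H2-DMb1, the beta chain of the exchange factor (chromosome 17, 34153072 to 34160230, plus strand), had another layout. It stood at 9.13, 15.9, 28.1 and 24.4 CPM in LCDD 1 to 4 and at 2.99, 25.3, 32.3 and 33.7 CPM in DH-LMP2A 1 to 4. In WT 1 to 5 it stood at 15.5, 49.9, 12.8, 13.9 and 11.5 CPM. The library that was highest in the other genes among DH-LMP2A, DH-LMP2A 1, was the lowest of all 13 here, 11.3-fold below DH-LMP2A 4.

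**Figure D1:**
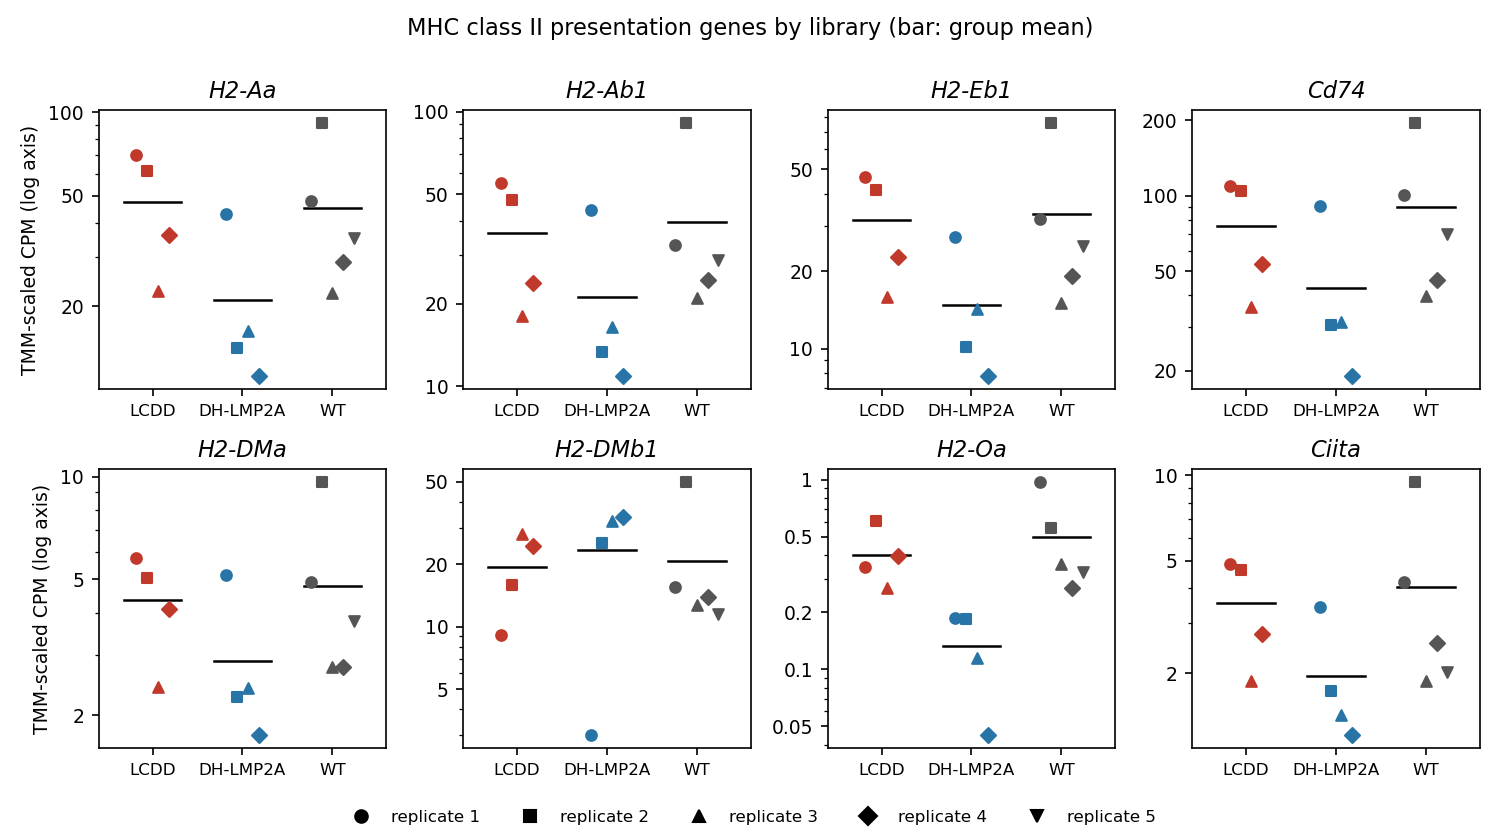
Level of each of the 8 genes in each of the 13 libraries, in TMM-scaled CPM on a log axis, by genotype. Symbols mark the replicate number and bars the group mean. DH-LMP2A 2, 3 and 4 are the lowest libraries for H2-Aa, H2-Ab1, H2-Eb1 and Cd74, WT 2 is the highest, and H2-DMb1 has a different order.

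Between LCDD and DH-LMP2A, the estimates for chains, invariant chain, H2-DMa, H2-Oa and Ciita lay on the side of a higher level in LCDD, but 0 of the 8 passed the test, in a comparison in which 2% of all genes did. H2-Aa was estimated at a log2 fold change of 1.17 ± 0.52 (SE), or 2.24-fold, with an adjusted p of 0.352 (edgeR quasi-likelihood test, Benjamini-Hochberg over all genes tested). H2-Eb1 was at 1.10 ± 0.53 and Ciita at 0.85 ± 0.54. Cd74 was at 0.81 ± 0.57, H2-Ab1 at 0.78 ± 0.55 and H2-DMa at 0.58 ± 0.45. H2-DMb1 was at -0.28 ± 0.64, and H2-Oa at 1.54 ± 0.53 with an adjusted p of 0.193.

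A gene was called at an adjusted p under 0.05. In these bulk samples fewer cells of a type and less RNA per cell cannot be told apart. Of the 7 genes above the filter in all libraries, 6 had a higher estimate in LCDD and 1 had an unadjusted p under 0.05, with a median log2 fold change of 0.81 beside -0.0061 over all genes tested. Of all genes, 13.1% had an unadjusted p under 0.05 in edgeR. DESeq2 called 0 of the 8 as well, with 3 at an unadjusted p under 0.05. The ranges of the 2 genotypes did not overlap for 1 of the 8, H2-Oa, and for 7.62% of all genes tested.

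LCDD and DH-LMP2A libraries of one title code deviated together, as did some of different codes, and the code was also fitted as a replicate block. With it H2-Aa was at 1.29 (edgeR adjusted p = 0.0984), H2-Eb1 at 1.21 (0.128) and H2-Oa at 1.64 (0.0504). Again 0 of the 8 were called, with 3 at an unadjusted p under 0.05, while the share of all genes called was 6.1%. In the blocked fit, leaving out LCDD 3 brought calls of H2-Aa and H2-Eb1, leaving out LCDD 1 a call of H2-Oa, and leaving out WT 2 a call of H2-Aa. Within codes, LCDD exceeded DH-LMP2A in 4 of 4 for each gene but H2-DMb1, which was higher in LCDD in 1 of 4. For H2-Aa the 4 differences within codes ran from 0.48 to 2.11 on the log2 scale, and for H2-DMb1 from -0.67 to 1.58, the highest of them under the first code. Without DH-LMP2A 1, and with no block, the estimates were 1.78 for H2-Aa (edgeR adjusted p = 0.0780), 1.57 for H2-Eb1, 1.49 for Cd74, 1.42 for H2-Ab1 and 1.28 for Ciita. Without LCDD 1 they were 0.92, 0.85, 0.58, 0.50 and 0.66 in the same order, and H2-DMa ran from 0.41 to 1.03 and H2-DMb1 from -0.65 to -0.047 over the 8 libraries left out in turn. In each of these fits 0 of the 8 were called.

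LCDD and WT were not told apart by these genes. H2-Aa was at 0.08 with an interval of 2 SE from -0.89 to 1.04, and H2-Ab1 at -0.12 (-1.17 to 0.92). Cd74 was at -0.25 (-1.34 to 0.83), H2-Eb1 at -0.07 (-1.06 to 0.93) and Ciita at -0.17 (-1.18 to 0.83). H2-DMa was at -0.13 (-0.98 to 0.73), H2-DMb1 at -0.09 (-1.31 to 1.12) and H2-Oa at -0.30 (-1.19 to 0.60). Each interval reaches at least from -0.89 to 0.60, so equal levels were not shown. In this comparison 1.84% of all genes were called, and 0 of the 8 were by edgeR (lowest adjusted p = 0.906) or DESeq2, with 0 at an unadjusted p under 0.05 in both tools, beside 11.96% of all genes in edgeR. The ranges overlapped for each of the 8, and did not overlap for 4.59% of all genes tested. Without WT 2 the signs of 6 estimates turned: H2-Ab1 was at 0.40, H2-Eb1 at 0.44, H2-DMa at 0.25, H2-DMb1 at 0.50, Cd74 at 0.20 and Ciita at 0.37. H2-Oa did not pass the filter there, and none of the others was called. Single signs also turned without LCDD 1, 2, 3 or 4 or WT 3 or 4, with estimates between -0.17 and 0.15.

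Between DH-LMP2A and WT the estimates mirrored the first comparison, with which this one shares the DH-LMP2A libraries. H2-Eb1 was at a log2 fold change of -1.17 ± 0.51 (SE), H2-Aa at -1.09 ± 0.50, Cd74 at -1.07 ± 0.55, Ciita at -1.02 ± 0.52, H2-Ab1 at -0.90 ± 0.53 and H2-DMa at -0.71 ± 0.43. H2-DMb1 was at 0.19 ± 0.61, and H2-Oa at -1.84 ± 0.51 with an adjusted p of 0.151 (edgeR), which is 3.58-fold lower in DH-LMP2A. Of all genes, 0.627% were called, and 0 of the 8 were called by edgeR or by DESeq2, with 3 and 5 of the 8 at an unadjusted p under 0.05, as were 12.5% of all genes in edgeR. Of the 7 genes above the filter in all libraries, 2 had an unadjusted p under 0.05 in edgeR, H2-Eb1 and H2-Aa, and the median was -1.02 beside 0.00089 over all genes tested. Ranges did not overlap for 1 of the 8, H2-Oa, and for 4.97% of all genes tested.

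The size of this difference moved with single libraries. Without WT 2 the estimate for H2-Aa was -0.67, for H2-Eb1 -0.63, for Cd74 -0.58, for Ciita -0.46, for H2-Ab1 -0.35 and for H2-DMa -0.31. Without DH-LMP2A 1 they were -1.70, -1.64, -1.74, -1.45, -1.54 and -1.16 in the same order, and 0 of the 8 were called either way. With the title code as a block, H2-Aa was at -1.47 (edgeR adjusted p = 0.0842), H2-Eb1 at -1.48 (0.0888) and Cd74 at -1.52 (0.0913). In that fit 7 of the 8 had an unadjusted p under 0.05, with a median of -1.38. Only H2-Oa was called, beside 562 of all genes.

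**Figure D2:**
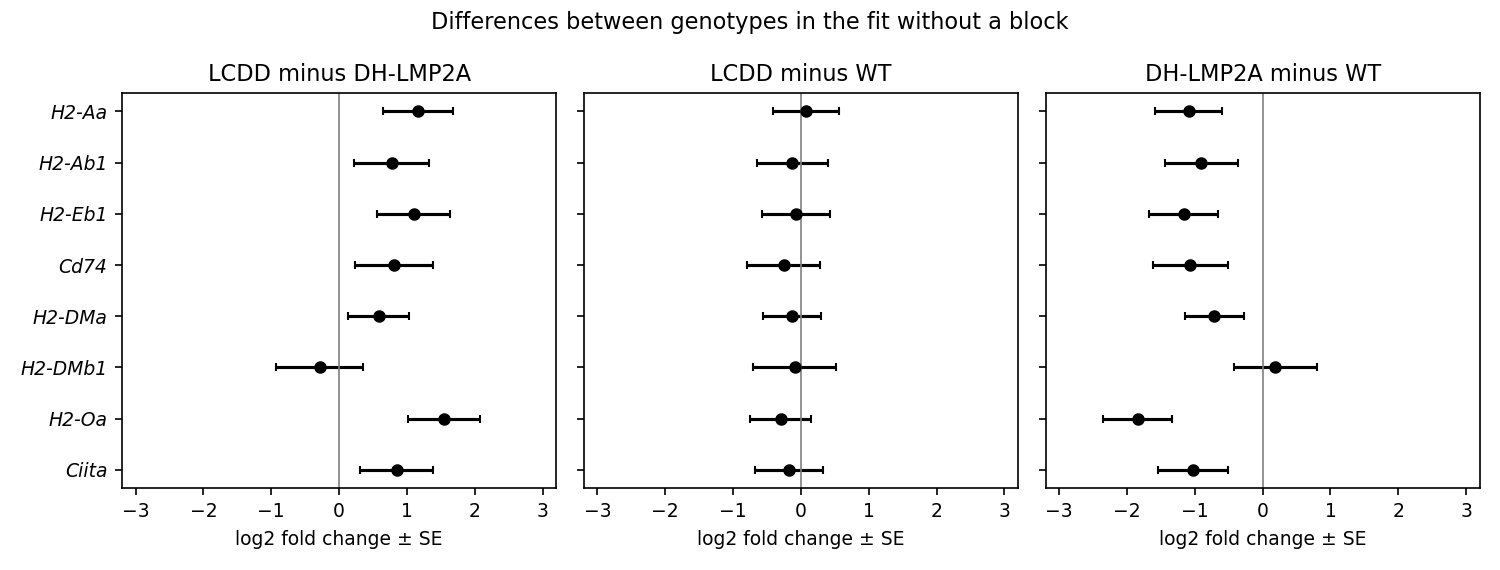
Estimated log2 fold change and SE of the 8 genes in the 3 comparisons, from the edgeR fit with no block, with the vertical line at 0. Estimates for 7 genes lie above 0 for LCDD minus DH-LMP2A and below 0 for DH-LMP2A minus WT, those for LCDD minus WT lie near 0, and none passed the test.

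The levels of 6 genes rose and fell together from library to library. Over the 13 libraries, the 15 pairs among H2-Aa, H2-Ab1, H2-Eb1, H2-DMa, Cd74 and Ciita had Pearson correlations of log2 CPM from 0.952 to 0.988. These libraries share tissue and, in part, title codes, so the coefficients are a description. Cd74 and Ciita correlated at 0.954 (Spearman 0.973), and at 0.924 without the 2 libraries farthest from the Cd74 median, WT 2 and DH-LMP2A 4. H2-Oa correlated with the 6 at 0.656 to 0.763, on its few reads. H2-DMb1 did not follow, with correlations of -0.274 to -0.0792 with the other 7 genes. Its coefficient with Cd74 was -0.274 (Spearman -0.357) and turned to -0.635 without the same 2 libraries, so it depended on them.

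Of the 8 genes, 4 have an entry within 200 bases of their deposited start in the RefSeq promoter table (GRCm38.p6), which gives 250 bases before and 50 bases after each start. They are H2-Aa and H2-Eb1, which moved together, H2-DMb1, which did not follow, and H2-Oa. Class II promoters are known for an X box, bound by RFX, and a Y box, bound by NF-Y, at a fixed distance, on which CIITA is assembled. The 4 windows are shown because they hold a stretch of that kind in the genes that moved together and in the one that did not. Capitals mark the letters searched, GNAAC for the core of the X box and ATTGG for the Y box, with 15 to 30 bases between them, and 15 bases of flank are printed on either side, 5′ to 3′ on the strand of the gene.
H2-Aa: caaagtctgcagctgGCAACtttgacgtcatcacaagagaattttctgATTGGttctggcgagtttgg
H2-Eb1: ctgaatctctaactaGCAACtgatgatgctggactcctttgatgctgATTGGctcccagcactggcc
H2-DMb1: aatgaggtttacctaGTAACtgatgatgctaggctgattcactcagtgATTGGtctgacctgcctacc
H2-Oa: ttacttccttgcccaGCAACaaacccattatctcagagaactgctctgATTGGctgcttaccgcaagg
The stretches lie at chr17:34287852-34287919 (minus strand), chr17:34305761-34305827, chr17:34153082-34153149 and chr17:34092288-34092355 (plus strand) in the same order.

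All 4 windows held the pair, with 28 bases between the cores in H2-Aa, H2-DMb1 and H2-Oa and 27 in H2-Eb1. Of the 32851 windows of the table, 1.37% held it on the strand of the gene and 2.79% on either strand, anywhere in the window. The 4 genes were searched more narrowly, on the strand of the gene and before the start only. ATTGG or its reverse complement CCAAT, of which the pair's Y core is a part, was in 37.4% of all windows. The letters and the spacing were chosen after these windows had been read, so the count is a description. The windows of H2-Ob and H2-Eb2, a chain of H2-O and a second E beta gene, held the pair too. In H2-DMb1 the RefSeq start, 34153191, lies inside the gene as deposited, and so does the whole stretch. In H2-Oa the RefSeq start, 34092379, also lies inside, and the stretch crosses the deposited start, 34092340. The stretches of H2-Aa and H2-Eb1 lie before the deposited start.

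H2-DMb1 differed from the rest in step with another gene of the region. H2-Ea-ps (chromosome 17, 34342933 to 34344643, minus strand) is listed in the table for the E alpha chain, which is silent in the b haplotype of C57BL/6 and 129 mice through a promoter deletion and expressed in the d haplotype of BALB/c mice. It had 401 reads in LCDD 1, 633 in DH-LMP2A 1, and 133, 202 and 257 in WT 3, WT 4 and WT 5. The other 8 libraries had 0 reads. Thus all 3 single-mouse libraries, and the LCDD and DH-LMP2A pools of the first code, had E alpha reads, and WT 1, which shares that code, had none.

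Those 5 libraries were the 5 lowest in H2-DMb1, at 2.99 to 13.9 CPM against 15.5 to 49.9 CPM in the 8 libraries without E alpha reads. DH-LMP2A 1, with the most E alpha reads, had the least H2-DMb1. H2-Ob, the beta chain of H2-O, was also lowest in DH-LMP2A 1 (0.898 CPM), followed by WT 5, WT 4 and WT 3 (1.95, 2.55 and 2.84), but LCDD 1 had 4.26 CPM, within the 3.83 to 4.33 of its genotype. H2-DMb2, a near-identical copy of H2-DMb1, had 4.34 CPM in DH-LMP2A 1, more than H2-DMb1 itself, and was 0.0499 to 0.390 times as abundant as H2-DMb1 in the other libraries. How reads that match both copies were counted is not given in the sources used here, so values of H2-DMb1 and H2-DMb2 are uncertain. This split follows no genotype, was seen in the data before it was described, and its part in the H2-DMb1 values was not tested. In the comparisons of genotypes, 0 of the 3 tested genes among H2-DMb2, H2-Ob and H2-Ea-ps were called, and H2-Eb2 did not pass the filter. Within 250 kb of H2-Ab1 lie 42 genes of the table, 20 of them tested and 6 of the latter from the 8 described here, and 0 were called in any of the 3 comparisons by edgeR.

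**Figure D3:**
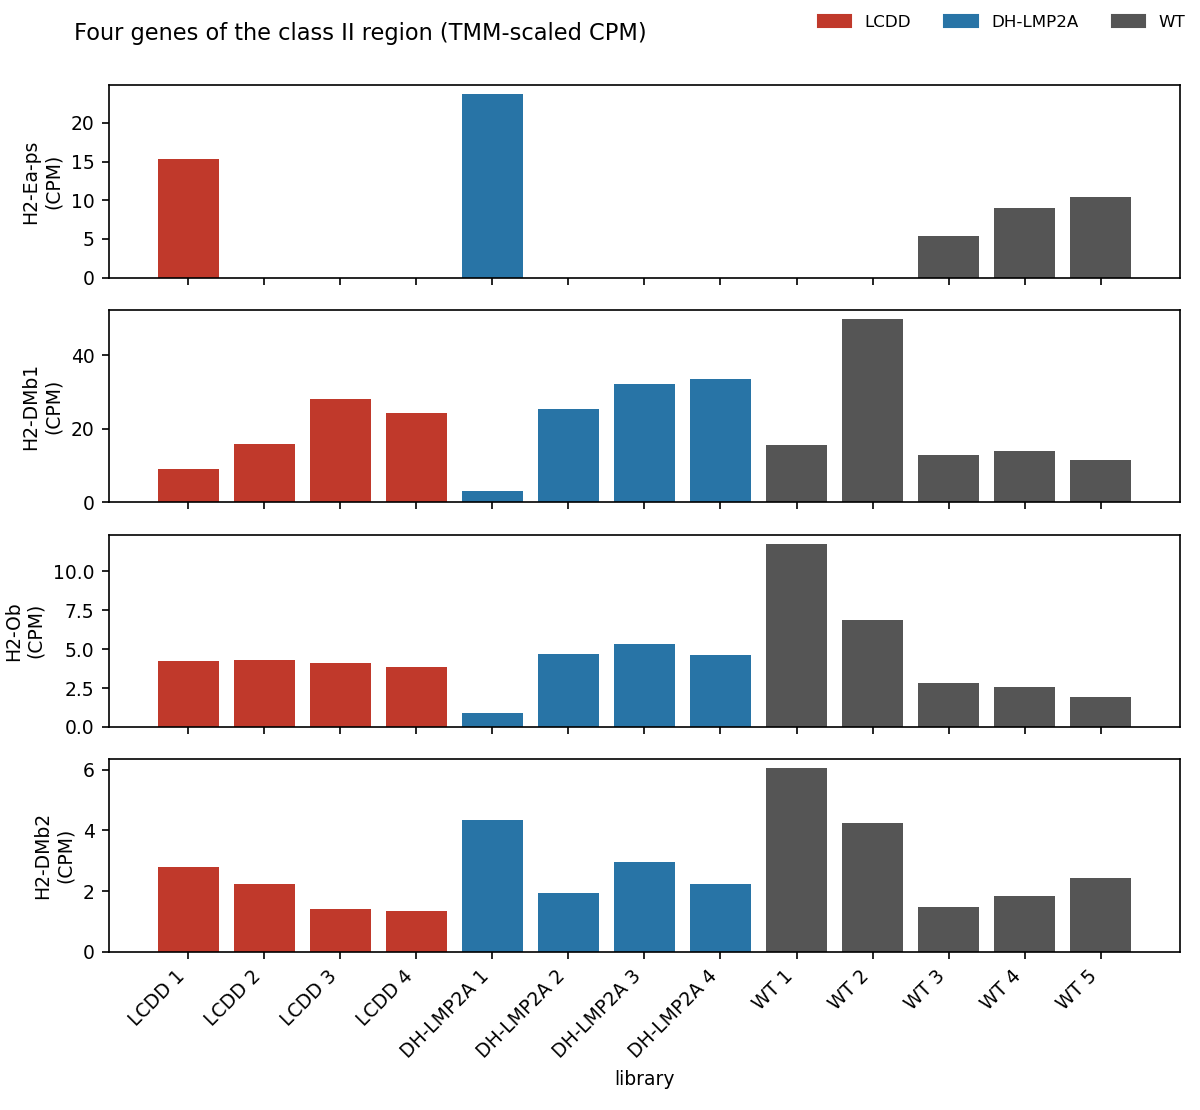
Level of H2-Ea-ps, H2-DMb1, H2-Ob and H2-DMb2 in each library, in TMM-scaled CPM on linear axes from 0, coloured by genotype. The 5 libraries with H2-Ea-ps reads are the 5 lowest in H2-DMb1, and H2-DMb2 has no such order.

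The genes whose levels were most like those of H2-Aa, H2-Ab1, H2-Eb1 and Cd74 were ranked among 14519 tested genes averaging 1 CPM or more, by the Pearson correlation of log2 CPM with the mean of these 4 over the 13 libraries. Ctss, the protease cathepsin S, which cleaves the invariant chain, came first with 0.973 (Spearman 0.973). Itgax, the CD11c integrin of dendritic cells and some macrophages, followed with 0.969, then Cd52 (0.958), Rnase6 (0.957) and Fcer1g (0.955), the shared signalling chain of Fc receptors. Ms4a4c (0.952), Arpc4 (0.947), Mpeg1 (0.947), B9d2 (0.946) and Upp1 (0.946) completed the 10. After genotype and code means were removed, the coefficient was 0.934 for Ctss, 0.958 for Itgax, 0.982 for Mpeg1 and 0.867 for Upp1.

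**Figure D4:**
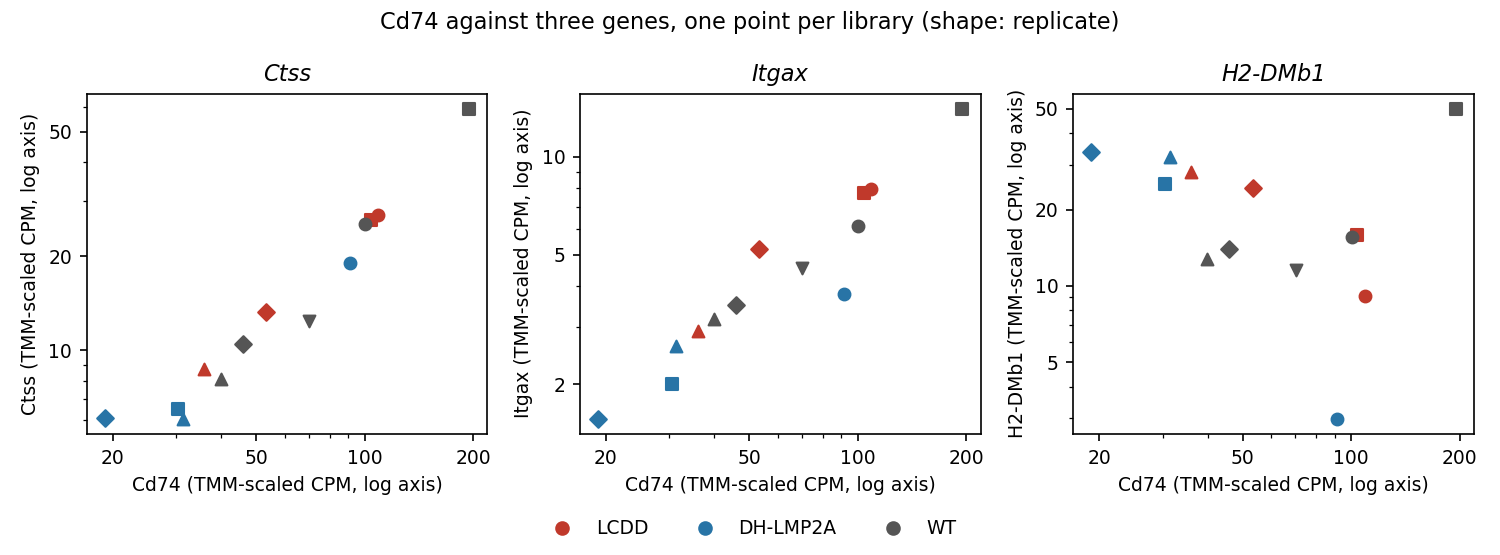
Level of Cd74 in each library against Ctss, Itgax and H2-DMb1, in TMM-scaled CPM on log axes, coloured by genotype with the replicate number as symbol. Ctss and Itgax climb with Cd74 over the 13 libraries, and H2-DMb1 does not.

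Marker lists differed in how far they followed the class II genes from library to library. The pan-leukocyte sum of 5 genes correlated at 0.869 with the mean of the 4 class II genes above, and at -0.0641 with H2-DMb1. The coefficient with those 4 genes was 0.527 for the dendritic cell sum, 0.459 for the B cell sum and -0.237 for the macrophage and monocyte sum. That last value mainly describes Mertk and Mrc1, which made up the most of the sum, and not the whole list. The dendritic cell value likewise mainly describes Zbtb46, which averaged 106.5 CPM, beside 5.01 for Itgax, the next most abundant of that list. Over the 14 macrophage and monocyte markers, the median log2 fold change was 0.73 in LCDD against DH-LMP2A. It was -0.43 in LCDD against WT and -0.78 in DH-LMP2A against WT. All 5 pan-leukocyte genes were above the floor in each genotype. Of the 14 macrophage and monocyte markers and the 10 dendritic cell markers, all were above the floor in at least 1 library of each genotype. Their sums were 988 to 1257 CPM in LCDD, 851 to 1211 in DH-LMP2A and 917 to 1307 in WT for the former, of which Mertk and Mrc1 made up the most. They were 125 to 143, 79.1 to 108 and 117 to 144 CPM for the dendritic list, of which Zbtb46 made up the most. The 10 B cell markers summed to 6.32 to 10.2 CPM in LCDD, 6.13 to 15.3 in DH-LMP2A and 6.44 to 62.1 in WT, with the highest value in WT 1, the library with the most H2-Oa. No marker of these 4 lists was called in LCDD against DH-LMP2A without the block, and with it Cd53, Mrc1, Ccr2, Flt3 and Zbtb46 were, all higher in LCDD. Whether these cells account for the class II levels was not tested.

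Markers of resident glomerular cells also varied. The sum of 6 endothelial markers correlated at 0.656 with the 4 class II genes and at -0.657 with H2-DMb1. It was 4604 to 10558 CPM in LCDD, 3256 to 8725 in DH-LMP2A and 6436 to 10852 in WT, and the median of the 6 was -0.72 on the log2 scale in DH-LMP2A against WT and 0.52 in LCDD against DH-LMP2A. The sum of 4 mesangial markers, which correlated at 0.458 with the class II genes, was 2496 to 3911 CPM in LCDD and 1716 to 2182 in DH-LMP2A, ranges that do not overlap, and 2029 to 2674 in WT. None of these 10 markers was called without the block, and with it Itga8 and Pdgfra of the mesangial list were higher in LCDD than in DH-LMP2A. The part of these cells in the class II levels was not tested.

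Of 8 plasma cell markers, 7 were tested, and 3 of them, the antibody genes Jchain, Igha and Igkc, fell in LCDD and in DH-LMP2A against WT. In LCDD against WT the estimates for Sdc1 (0.51), Derl3 (0.62) and Mzb1 (0.09) lay on the other side and were not called. The summed list was 66.7 to 141 CPM in LCDD, 58.8 to 111 in DH-LMP2A and 131 to 191 in WT, so LCDD and WT overlapped. Igkc, the kappa constant region, averaged 39.4 ± 21.1 CPM (SD, n = 5) in WT. Its LCDD mean was 7.12 ± 1.80 CPM (SD, n = 4), and its DH-LMP2A mean 5.01 ± 2.18 CPM (SD, n = 4). Tnfrsf17 did not exceed the floor in any of the 13. For Igkc all LCDD libraries lay below all WT libraries, whereas the ranges of LCDD and WT overlapped for each of the 8 class II genes. The plasma cell sum, of which Sdc1 made up the most, correlated at 0.727 with the 4 class II genes and at -0.286 with H2-DMb1.

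The other genes of peptide loading showed 1 clear difference. Of 11 processing genes tested, the list being Ctss and other cathepsins, Lgmn, Ifi30, Cd83, March1 and March8, only Ifi30 was called. Ifi30 (chromosome 8, 70762774 to 70766663, minus strand) encodes GILT, a thiol reductase that opens disulfide bonds of proteins in the class II compartment. It was at 17.5, 23.6, 23.9 and 19.3 CPM in LCDD and at 37.3, 34.2, 33.7 and 36.4 CPM in DH-LMP2A. In WT it was at 21.03, 24.6, 19.1, 22.8 and 24.3 CPM. Each DH-LMP2A library lay above each of the other 9, the opposite of H2-Oa.

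Ifi30 was lower in LCDD than in DH-LMP2A, by -0.75 ± 0.12 (SE) on the log2 scale (edgeR adjusted p = 0.00891), and lower within 4 of 4 codes. This call was kept whichever library was left out (highest edgeR adjusted p = 0.0348 over the alternatives), but not with an added log2 minimum of 1. It was higher in DH-LMP2A than in WT by 0.66 ± 0.12 (edgeR adjusted p = 0.0257). That second call was lost without any 1 of DH-LMP2A 2, 3 and 4 or WT 3, 4 and 5, with a Y-linked covariate (adjusted p = 0.531) and without the 3 single-mouse libraries (0.185), while the estimate stayed between 0.53 and 0.70, which is also under a log2 minimum of 1. With the block, Ctsh, another lysosomal cathepsin, was also lower in LCDD than in DH-LMP2A (-0.88, edgeR adjusted p = 0.0121, against -0.77 and 0.399 without it). The most abundant of the list, Ctsl and Ctsb, were at -0.26 and -0.17 in that comparison and were not called. The median of the 11 was -0.14 in LCDD against DH-LMP2A, beside -0.0061 over all genes.

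Of 14 genes that control class II transcription, 0 were called without the block in any comparison. Among them are the X and Y box factors Rfx5, Rfxank, Rfxap, Nfya, Nfyb, Nfyc and Creb1, and Irf1, Irf4, Irf8, Spi1 and Prdm1. Creb1 averaged 98.2 CPM in WT, 94.8 in LCDD and 88.0 in DH-LMP2A. With the block, Irf8, a transcription factor of myeloid cells and B cells, was higher in LCDD than in DH-LMP2A (1.04, edgeR adjusted p = 0.0488, against 0.99 and 0.254 without it). In the podocyte list, Nphs1 was lower in LCDD than in DH-LMP2A under the block.

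Interferon gamma is the main inducer of Ciita outside professional antigen-presenting cells. Of 16 genes of its pathway, 15 were tested, and only its receptor chain Ifngr1 was called. The sum of the 16 correlated at 0.669 with the 4 class II genes. The median log2 fold change of the 15 was 0.39 in LCDD against DH-LMP2A, 0.06 in LCDD against WT and -0.60 in DH-LMP2A against WT. The part of this pathway in the class II levels was not tested. Ifngr1 (chromosome 10, 19591949 to 19610229, plus strand) was at 120.9, 99.8, 153 and 111 CPM in LCDD and at 102, 78.8, 124 and 91.9 CPM in DH-LMP2A. In WT it was at 144, 241, 260 and 282 CPM in WT 1 to 4 and at 201 in WT 5. All DH-LMP2A libraries lay below all WT libraries, and LCDD 3 lay above WT 1.

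Ifngr1 was lower than in WT by -0.90 ± 0.20 (SE) in LCDD (edgeR adjusted p = 0.0397) and by -1.19 ± 0.20 in DH-LMP2A (0.0222). Both calls were lost without the 3 single-mouse libraries, at -0.70 and -0.98. They were also lost with a Y-linked covariate, at adjusted p of 0.409 and 0.207 and estimates of -1.09 and -1.40. Leaving out LCDD 1, 2 or 4, DH-LMP2A 4, or WT 3, 4 or 5 ended the first call, as did a fit of those 2 genotypes alone (-0.92, edgeR adjusted p = 0.0852) and a log2 minimum of 1, and leaving out DH-LMP2A 2 or 4 or WT 3 or 4 ended the second. With the block, Ifngr2 was higher in LCDD than in DH-LMP2A (0.62, edgeR adjusted p = 0.0335, against 0.60 and 0.110 without it). Ifng itself was close to 0 in each genotype, with highest values of 0.153 CPM in LCDD, 0.112 in DH-LMP2A and 0.309 in WT. It was at or under the floor in each DH-LMP2A library and rose above it in some library of LCDD and of WT.

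Of 9 genes of class I presentation and 6 tested costimulatory genes, 0 were called in the 3 comparisons. The class I sum, of which B2m made up the most, correlated at 0.872 with the 4 class II genes, and the costimulatory sum at 0.694. For the processing list the coefficient was 0.067, and for the transcription control list -0.168. The class I median log2 fold change was 0.39 in LCDD against DH-LMP2A, -0.15 in LCDD against WT and -0.54 in DH-LMP2A against WT. B2m, the light chain of class I molecules, averaged 890 ± 262 CPM (SD, n = 5) in WT. Its LCDD mean was 1021 ± 536 CPM (SD, n = 4), and its DH-LMP2A mean 614 ± 296 CPM (SD, n = 4). Tapbp averaged 258, 204 and 220 CPM in the same order. Cd40, a receptor through which T cells activate antigen-presenting cells, averaged 18.8, 27.0 and 28.3 CPM, with an edgeR adjusted p of 0.0636 for LCDD and 0.0642 for DH-LMP2A against WT. Icosl averaged 33.7, 38.2 and 35.4 CPM.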

How the data were processed

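Messenger RNA of 13 glomerular libraries was measured as raw read counts per gene, which the authors deposited with the summed exon length of each gene. Per the submitters' processing notes the tools were STAR 2.4.0a, featureCounts (Subread 1.5.0-p3) and DESeq2, on mm10 and GRCm38. The annotation, the strand setting and the treatment of reads with several matches are not given in the sources used here. Per the labels' protocols the libraries came from a stranded poly(A) kit and were read from both ends. All 13 count columns were used, with 0 left over. The spans of the 8 genes overlapped those of GENCODE M21 on GRCm38 in 8 of 8 cases, each a protein-coding gene.

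Genes were filtered with filterByExpr by genotype (minimum count 10), scaled with TMM factors and tested in one edgeR 4.0.16 quasi-likelihood fit in R 4.3.3 over all 13 libraries, with 1 coefficient per genotype. P-values were adjusted by Benjamini-Hochberg over 16738 genes, and a gene was called at an adjusted p under 0.05. CPM use TMM-scaled totals, RPKM divide these by the deposited exon length, and log2 CPM use a prior count of 2. The floor of 3 counts corresponded to 0.0971 to 0.185 CPM and covers counting error only, since there are no molecular identifiers. Pairs of libraries of 1 genotype differed by a chi-square per degree of freedom of 12.6 to 233.9 over genes with at least 20 counts, so none was a repeat deposit. Apart from the pools, nothing states how the mice of a genotype are related.

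Same-code libraries of LCDD and DH-LMP2A deviated together in 4 of 4 pairs (correlation of deviations 0.153 to 0.593), so blocked values stand beside results of that comparison where a call changed. Pairs of different codes averaged -0.139. Some of them still deviated together: LCDD 2 with DH-LMP2A 1 at 0.524, LCDD 3 with DH-LMP2A 4 at 0.458 and LCDD 4 with DH-LMP2A 3 at 0.419. The sharing was thus not particular to a code. Alternatives were DESeq2 1.42.0, RLE factors, no filter, a fit without the third genotype, the block, a covariate of 4 Y-linked genes, no single-mouse libraries, an added log2 minimum of 1 and leaving out each library. The fit was tested on simulated counts. The members and gene lists were chosen with earlier results of these data known. Named are the 8 genes, the listed genes called in any comparison and otherwise the 2 most abundant of each list. Genes called only with the block, and cell type markers, were named after their values were seen. Some listed genes are not reported here.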

Additional observations from a re-analysis of the deposited data

Results flagged for a closer look

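In groups of 4 or 5 libraries, 30 sets of values were checked for 1 library far from the others, and 2 stood out, both of H2-DMb1. Chance marks about 1 set in 20, or 1.5 of 30. In DH-LMP2A 1 the log2 CPM of H2-DMb1 was 1.62, below the 4.67 to 5.08 of the other DH-LMP2A libraries. In WT 2 it was 5.64, above the 3.54 to 3.96 of the other WT libraries. DH-LMP2A 1 also had the most H2-Ea-ps reads, 633, and WT 2 had 0.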

How the results depend on the processing

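With edgeR, none of the 8 genes was called in any comparison under another scaling, no filter, a fit of 2 genotypes or a Y-linked covariate, nor without the single-mouse libraries or any 1 library, and DESeq2 called none. The replicate block by title code called 1, H2-Oa in DH-LMP2A against WT (-2.25, adjusted p = 0.0277). Same-code libraries of DH-LMP2A and WT had correlations of deviations from -0.159 to 0.568, with a mean of 0.298. Pairs of different codes averaged -0.0909. H2-Oa passed the filter only through LCDD and WT, so its call is no support for a difference. In the blocked fit that count was 1 without LCDD 1, 3 or 4 or WT 4 or 5, 3 without DH-LMP2A 1 (H2-Aa, H2-Oa and Cd74) and 4 without WT 1 (H2-Aa, H2-Ab1, H2-Eb1 and Cd74). It was 0 without LCDD 2, DH-LMP2A 2, 3 or 4, or WT 2 or 3. For LCDD against DH-LMP2A it was 1 without LCDD 1 or WT 2 and 2 without LCDD 3. Leaving libraries out of the blocked fit was chosen after seeing the data. H2-Oa did not pass the filter in the fits of DH-LMP2A with 1 other genotype, nor without LCDD 2 or WT 1, 2 or 3.

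Over all genes, calls for LCDD against DH-LMP2A numbered 334, and 823 with DESeq2, 213 with 2 genotypes, 1021 with the block and 113 to 484 without 1 library. For LCDD against WT they numbered 308, and 742, 185 and 536 in that order, 23 with the Y-linked covariate, 54 without the single-mouse libraries and 159 to 441 without 1 library. For DH-LMP2A against WT they numbered 105, and 474 with DESeq2, 562 with the block, 36 with the covariate, 69 without the single-mouse libraries and 29 to 407 without 1 library. The causes were not tested.

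In LCDD against WT the sign of H2-Aa turned with the block (-0.18), the covariate (-0.72) and no single-mouse libraries (-0.58). In DH-LMP2A against WT that of H2-DMb1 turned with the covariate (-1.10) and no single-mouse libraries (-0.49). Without 1 library, LCDD against WT ran from -0.17 to 0.47 for H2-Aa, -0.40 to 0.40 for H2-Ab1, -0.31 to 0.44 for H2-Eb1, -0.30 to 0.25 for H2-DMa, -0.33 to 0.50 for H2-DMb1, -0.48 to 0.20 for Cd74 and -0.38 to 0.37 for Ciita. H2-DMb1 in DH-LMP2A against WT ran from -0.035 to 0.78. In LCDD against DH-LMP2A no estimate of the 8 changed sign. Mean levels by library total moved by less than 1 SD in 24 of 24 cases. Depth limits H2-Oa most, with 1 to 30 reads.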
